A study of Mus musculus with 12 samples.

Results

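The 5 genes described here, Fdft1, Sqle, Lss, Cyp51 and Tm7sf2, encode consecutive steps of cholesterol synthesis on either side of lanosterol synthase, the enzyme that BIBB-515 inhibits. They were chosen by name for their place in the pathway, with earlier results of these data known, and are 5 of the 24062 genes in the count tables. RNA-seq counts of liver from 12 female C57BL/6J mice were compared. The control group was 6 mice on the control diet (mice 1 to 6), and the BIBB-515 group was 6 mice on a matched diet with BIBB-515 at a dose of 55 mg per kg of body weight (mice 6 to 11), both for 10 days. All mice arrived at 6 weeks of age, were acclimated for 2 weeks and ate the control diet for the 3 days before the start. The study's methods give 11 mice per group, randomized to the diets, of which 6 per group are analysed here. Its reporting summary adds that 12 were raised per group and 1 per group was left out. The labels name no transgene or deletion. The labels give no batch. The labels of the BIBB-515 mice also carry the words inhibition of Lss expression, whereas the compound acts on the enzyme, and Lss RNA was not lower in these livers, as given below.

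Cholesterol synthesis commits to sterols at farnesyl diphosphate, which squalene synthase (Fdft1) joins head to head into squalene. Squalene epoxidase (Sqle) adds an oxygen, lanosterol synthase (Lss) folds the epoxide into lanosterol, the first sterol, Cyp51 removes its 14-alpha methyl group, and Tm7sf2 reduces the double bond that this removal leaves. In liver, genes of this pathway are known as targets of SREBP2, a transcription factor held in the endoplasmic reticulum by sterols and released when sterols fall.

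The gene counts of a library summed to 22764819 to 27914647 reads for control mice and to 24223939 to 31058370 reads for BIBB-515 mice (exact permutation test of the totals, two-sided, p = 0.121). Every member was counted at least 745 times in every mouse, and all 5 were among the 12481 genes that passed the filter on low counts. Hepatocyte markers led the tissue, with a summed level of 136227 to 155722 CPM (reads counted, scaled to the size of the library) in the control mice and 105469 to 120311 CPM in the BIBB-515 mice. Most of both sums was Alb, at 120094 ± 6000 CPM in control mice and 90923 ± 5661 CPM in BIBB-515 mice (SD, n = 6 each). Of these 8 markers, Alb (log2 fold change −0.40) and Serpina1c (−0.58) fell with BIBB-515. The other 6 did not pass an FDR of 0.05 in edgeR's quasi-likelihood test, with log2 fold changes from −0.47 (Ass1) to 0.02 (Hpd). Ass1 was at 1.01 ± 0.448 CPM (SD, n = 6) in controls. Of the markers of other cells that could be tested, 0 of 5 bile duct, 0 of 5 macrophage, 0 of 3 lymphocyte and 0 of 6 endothelial genes passed an FDR of 0.05 in edgeR's quasi-likelihood test. At an unadjusted p under 0.05 these were 1, 0, 0 and 1, and DESeq2 called 1 bile duct gene (Spp1) and 0 of the rest, limma-voom 0. Among all tested genes 13.7% passed the FDR of 0.05 in edgeR's test. In edgeR's test Lrat and Dcn of 6 stellate cell and fibroblast genes fell, while the summed level of that list was 319.4 to 438.9 CPM in control mice and 314.7 to 404.6 CPM in BIBB-515 mice. Among fat cell markers only Car3, which hepatocytes also express, could be tested, and it rose, while Adipoq, Plin1 and Retn were near 0 and Lep was 0 in every mouse. Of the red cell markers only Alas2 could be tested and did not pass, and Hba-a1, Hba-a2, Hbb-bs and Hbb-bt were listed at 0 in every mouse. These tables leave out reads that map to several places, and whether values such as those of Ass1 and the hemoglobin genes reflect the counting or the RNA was not tested. Of the pancreas markers only Cela1 could be tested, and it fell, with Pnlip and Amy2a5 listed at 0 in every mouse. The part of these marker differences in the results below was not tested, and in whole liver fewer cells of a type and less RNA per cell cannot be told apart.

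All 5 genes had a higher mean level with BIBB-515, and 3 of the 5, Fdft1, Cyp51 and Tm7sf2, rose past an FDR of 0.05 in edgeR's quasi-likelihood test. Among all tested genes, 13.7% passed this threshold in either direction, 7.18% as higher and 6.48% as lower. In these same 3 genes all 6 BIBB-515 mice lay above all 6 control mice, which held for 7.07% of tested genes, 4.35% upward and 2.72% downward. Lss rose 1.72-fold on average without passing the threshold, and Sqle, the step between Fdft1 and Lss, had the smallest difference, 1.16-fold.

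**Figure D1:**
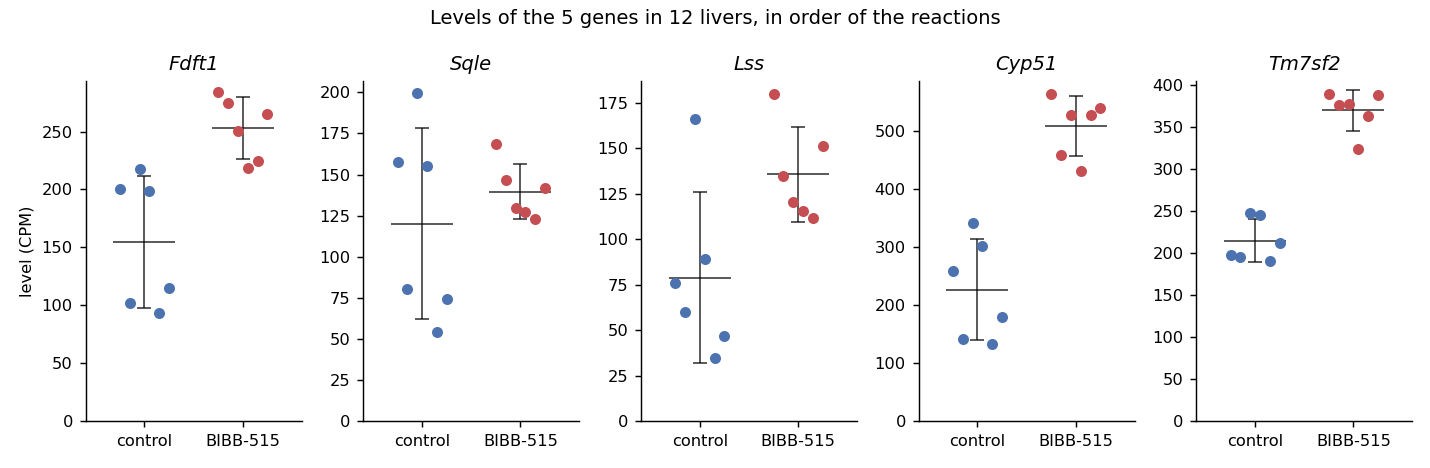
Level of each gene in CPM (y axis, from 0) in each of 6 control mice (blue) and 6 BIBB-515 mice (red), with the mean and SD of each group in black. The groups are apart for Fdft1, Cyp51 and Tm7sf2, 1 of 6 control mice (166.3 CPM) lies among the BIBB-515 mice for Lss, and the BIBB-515 mice lie inside the control range for Sqle.

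Fdft1 (chr14:63145150-63177793, minus strand, mm10, 8 exons) makes squalene, the first molecule committed to sterols. Its level was 93.6 CPM in the lowest control mouse, 156.6 at the median and 218.0 in the highest, and 218.3, 258.0 and 284.1 CPM in the BIBB-515 mice. Control mice 1, 3 and 4 were near the BIBB-515 mice, whose lowest value exceeded the highest control by less than 1 CPM, and control mice 2, 5 and 6 were far below. The group means were 154.5 ± 56.8 and 252.9 ± 26.8 CPM (SD, n = 6 each), a log2 fold change of 0.71 (SE 0.20, 95% interval 0.29 to 1.14) with an FDR of 0.0290 in edgeR's quasi-likelihood test. An exact permutation test on the log2 CPM of this gene, two-sided like all those below, gave p = 0.00216, the smallest that 6 mice against 6 allow. The call was lost when any one of 5 mice was left out, control mouse 6 or BIBB-515 mouse 6, 7, 8 or 11 (FDR 0.0511 to 0.0576, edgeR), with log2 fold changes of 0.61 to 0.84 over all 12 such fits.

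Sqle (chr15:59315092-59331193, plus strand, 11 exons) turns squalene into the epoxide that lanosterol synthase takes up. The control mice spanned 54.3 to 199.6 CPM with a median of 117.8, and the BIBB-515 mice 123.1 to 168.7 CPM with a median of 135.7. Control mice 2, 5 and 6 were below every BIBB-515 mouse and control mouse 3 was above every one, so that the BIBB-515 range lay within the control range. The means were 120.1 ± 58.3 and 139.6 ± 16.9 CPM (SD, n = 6 each), and the log2 fold change of 0.22 (SE 0.26, 95% interval −0.33 to 0.77) had an FDR of 0.621 in edgeR's quasi-likelihood test. The exact permutation test gave p = 0.258, and the interval still holds a rise of up to 1.70-fold.

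Lss (chr10:76531627-76553934, plus strand, 22 exons) encodes the target of the compound. Its level was 34.8 CPM in the lowest control mouse, 68.0 at the median and 166.3 in the highest, and 111.6, 127.7 and 179.7 CPM in the BIBB-515 mice. Of the control mice, 5 of 6 were below every BIBB-515 mouse, and control mouse 3 was above all but 1 of them. The means were 78.8 ± 47.1 and 135.7 ± 26.1 CPM (SD, n = 6 each), with a log2 fold change of 0.78 (SE 0.29, 95% interval 0.16 to 1.40) and an FDR of 0.0854 in edgeR's quasi-likelihood test. The exact permutation test on this single gene gave p = 0.0195. Without control mouse 3 the log2 fold change was 1.15 with an FDR of 0.00266 in the same test, and limma-voom on all mice gave 0.95 with an FDR of 0.0432.

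Cyp51 (chr5:4080674-4104697, minus strand, 10 exons), the lanosterol demethylase and the first enzyme to act on the product of lanosterol synthase, had the largest log2 fold change of the members. Whether Cyp51 changed more than Lss or Tm7sf2 was not resolved, as given below. The control mice spanned 133.5 to 341.5 CPM with a median of 219.0, and the BIBB-515 mice 430.5 to 564.5 CPM with a median of 527.1. The groups did not overlap, and the lowest BIBB-515 mouse (mouse 9) was well above the highest control (mouse 3). The means were 225.9 ± 87.2 and 507.8 ± 51.6 CPM (SD, n = 6 each), a log2 fold change of 1.17 (SE 0.21, 95% interval 0.73 to 1.61) with an FDR of 0.00223 in edgeR's quasi-likelihood test. The exact permutation test gave p = 0.00216.

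Tm7sf2 (chr19:6062821-6067850, minus strand, 10 exons), a sterol C14 reductase of the endoplasmic reticulum, had the smallest coefficient of variation of the 5 in both groups (11.9% and 6.61%). Its level was 191.1 CPM in the lowest control mouse, 204.9 at the median and 247.7 in the highest, and 324.4, 377.4 and 390.1 CPM in the BIBB-515 mice. No mouse of one group came near the other. The means were 214.9 ± 25.6 and 370.4 ± 24.5 CPM (SD, n = 6 each), and the log2 fold change of 0.79 (SE 0.08, 95% interval 0.61 to 0.96) had an FDR of 2.96e-05 in edgeR's quasi-likelihood test. The exact permutation test gave p = 0.00216. Lbr, the receptor of the nuclear lamina that carries the same reductase activity, was at 18.0 ± 2.74 CPM in controls with a log2 fold change of −0.11 (95% interval −0.32 to 0.09) and an FDR of 0.471 in the same test.

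The letters before the starts of 3 of the 5 genes could be read from RefSeq's promoter table (GRCm38.p6), and they are shown as the letters before the gene of the inhibited enzyme and before those of the steps after it. Each run is the 250 bases before the RefSeq start, 5′ to 3′ on the gene's strand, with capitals marking CCAAT (or ATTGG on this strand) and GGGCGG (or CCGCCC), the letters known as the CCAAT box and the GC box. The windows are chr10:76531355-76531604 (plus strand) for Lss, chr5:4104698-4104947 (minus strand) for Cyp51 and chr19:6067851-6068100 (minus strand) for Tm7sf2.
Lss: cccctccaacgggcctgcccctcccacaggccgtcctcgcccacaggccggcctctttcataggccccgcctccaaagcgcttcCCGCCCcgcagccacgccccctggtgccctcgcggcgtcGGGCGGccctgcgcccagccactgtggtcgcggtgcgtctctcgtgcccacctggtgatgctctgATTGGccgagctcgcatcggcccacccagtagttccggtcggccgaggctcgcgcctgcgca
Cyp51: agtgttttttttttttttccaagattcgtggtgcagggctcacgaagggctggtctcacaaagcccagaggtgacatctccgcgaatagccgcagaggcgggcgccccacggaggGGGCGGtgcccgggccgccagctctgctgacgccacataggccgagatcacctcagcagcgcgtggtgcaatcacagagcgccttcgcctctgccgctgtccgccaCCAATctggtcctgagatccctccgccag
Tm7sf2: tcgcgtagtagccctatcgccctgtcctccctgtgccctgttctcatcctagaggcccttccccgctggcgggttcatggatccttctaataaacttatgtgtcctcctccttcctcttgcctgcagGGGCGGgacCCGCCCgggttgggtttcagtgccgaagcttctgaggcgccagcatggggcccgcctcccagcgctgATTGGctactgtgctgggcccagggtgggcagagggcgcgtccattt
Each of these windows held 1 CCAAT box, which began 62 bases before the start of Lss on the opposite strand, 29 bases before that of Cyp51 on the gene's strand and 47 bases before that of Tm7sf2 on the opposite strand. CCAAT was in 33.8% and GGGCGG in 32.7% of the 32851 windows of this length in the table, on either strand. The GC box occurred in both orientations before Lss and Tm7sf2 and in 1 before Cyp51. TCACNCCAC, a consensus of the sterol response element, was in 1.05% of all windows and in none of these 3, and the E-box CACGTG was in 6.02% and in none of the 3. A match of letters shows no binding, and the absence of a match says only that these letters are not in this window.

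The 5 genes did not change by the same amount. To compare them without a library size, the ratio of each pair was taken within a mouse and tested with the exact permutation test, with p-values adjusted over the 10 pairs. The ratio differed between the diets at an adjusted p under 0.05 in this test in 4 of 10 pairs, and 3 of these involved Sqle. Relative to Sqle and per kilobase, Lss was 0.429 to 0.738 in the control mice and 0.803 to 0.946 in the BIBB-515 mice, without overlap. Cyp51 was 1.04 to 1.55 times Sqle in the control mice and 1.97 to 2.70 times Sqle in the BIBB-515 mice, again without overlap. Fdft1 was 1.05 to 1.65 times Sqle in the control mice and 1.62 to 1.86 times in the BIBB-515 mice, with 5 of 6 control mice below all of the latter.

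As log2 differences between the diets, the ratio of Sqle to Lss was lower with BIBB-515 by 0.59 (−0.59, 95% interval −0.85 to −0.33, adjusted p = 0.00722, exact permutation test). The ratio of Sqle to Cyp51 differed by −0.89 (95% interval −1.18 to −0.60, adjusted p = 0.00722, exact permutation test). The ratio of Fdft1 to Sqle differed by 0.43 (95% interval 0.21 to 0.64, adjusted p = 0.0162, exact permutation test). Relative to the steps on both sides of it, Fdft1 and Lss, the Sqle level was thus lower with BIBB-515. The fourth pair was Fdft1 to Cyp51, which differed by −0.47 (95% interval −0.63 to −0.29, adjusted p = 0.00722, exact permutation test).

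For 6 pairs the difference was not resolved. The ratio of Cyp51 to Tm7sf2 came closest, at 0.47 (95% interval 0.03 to 0.90, adjusted p = 0.0519, exact permutation test), and passed when control mouse 1, 3 or 4 was left out. The 95% intervals of all pairs are those of each pair alone, without adjustment for the number of pairs. An interval can therefore leave out 0 while the adjusted p is above 0.05. Sqle to Tm7sf2 (−0.43, 95% interval −1.04 to 0.20) and Lss to Cyp51 (−0.31, 95% interval −0.72 to 0.10) each had an adjusted p of 0.210 in the exact permutation test. Lss to Tm7sf2 (0.16, −0.47 to 0.75), Fdft1 to Lss (−0.16, −0.52 to 0.25) and Fdft1 to Tm7sf2 (−0.00, −0.43 to 0.43) had wide intervals around 0, and these do not show that the genes changed alike.

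**Figure D2:**
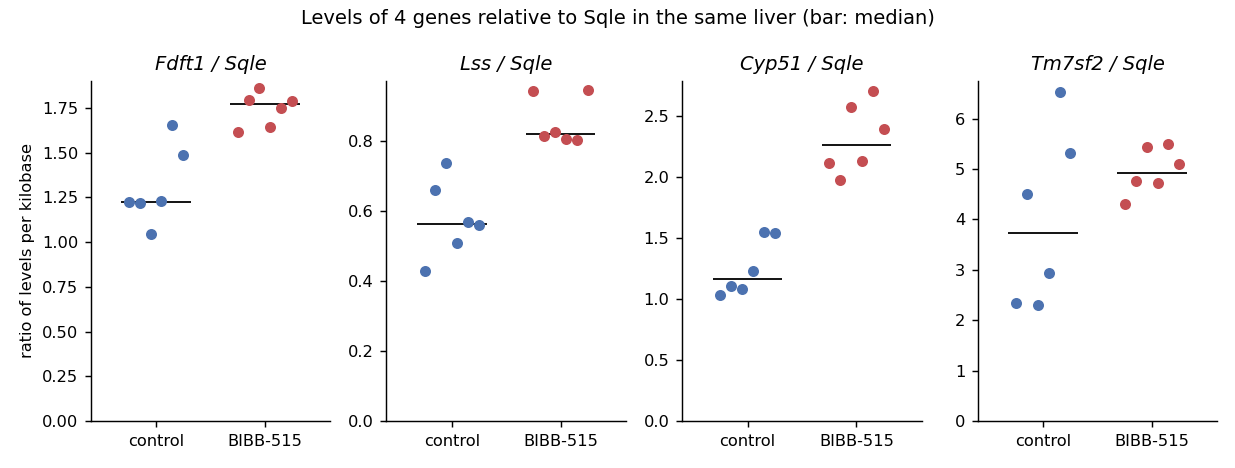
Level of Fdft1, Lss, Cyp51 and Tm7sf2 per kilobase divided by that of Sqle in the same liver (y axis, ratio, from 0), one point per mouse, control mice in blue and BIBB-515 mice in red, with the median of each group as a bar. The groups are apart for Lss (medians 0.563 and 0.819) and Cyp51 (1.17 and 2.26) and overlap for Fdft1 and Tm7sf2.

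Per kilobase of exon, the order of the levels in the control mice was Tm7sf2 at 145.3 ± 17.3, Fdft1 at 54.0 ± 19.9, Cyp51 at 51.9 ± 20.0, Sqle at 43.7 ± 21.2 and Lss at 25.4 ± 15.2 CPM per kilobase (SD, n = 6). Tm7sf2 was the highest of the 5 in every mouse. Fdft1 exceeded Cyp51 in 4 of 6 control mice, so these neighbours did not differ beyond their spread, whereas Sqle was below Cyp51 and above Lss in all 6. In the BIBB-515 mice the order was Tm7sf2 at 250.5 ± 16.6, Cyp51 at 116.7 ± 11.9, Fdft1 at 88.3 ± 9.35, Sqle at 50.8 ± 6.15 and Lss at 43.7 ± 8.41 CPM per kilobase (SD, n = 6). Cyp51 was above Fdft1 in all 6 of these mice, and Lss had come within a ratio of 0.803 to 0.946 of Sqle but stayed below it in every mouse.

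The mice differed from each other in the same direction across the genes. Control mouse 3 was the highest and control mouse 5 the lowest of the control group for all 5 genes, and BIBB-515 mouse 6 was the highest of its group for all 5. The lowest BIBB-515 mouse was mouse 9 for Fdft1, Cyp51 and Tm7sf2 and mouse 10 for Sqle and Lss. Values within a mouse share its library and its depth. The controls also spread more: the coefficient of variation was 36.8% for Fdft1, 48.5% for Sqle, 59.8% for Lss and 38.6% for Cyp51 in the control mice, and 10.6%, 12.1%, 19.2% and 10.2% in the BIBB-515 mice.

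**Figure D3:**
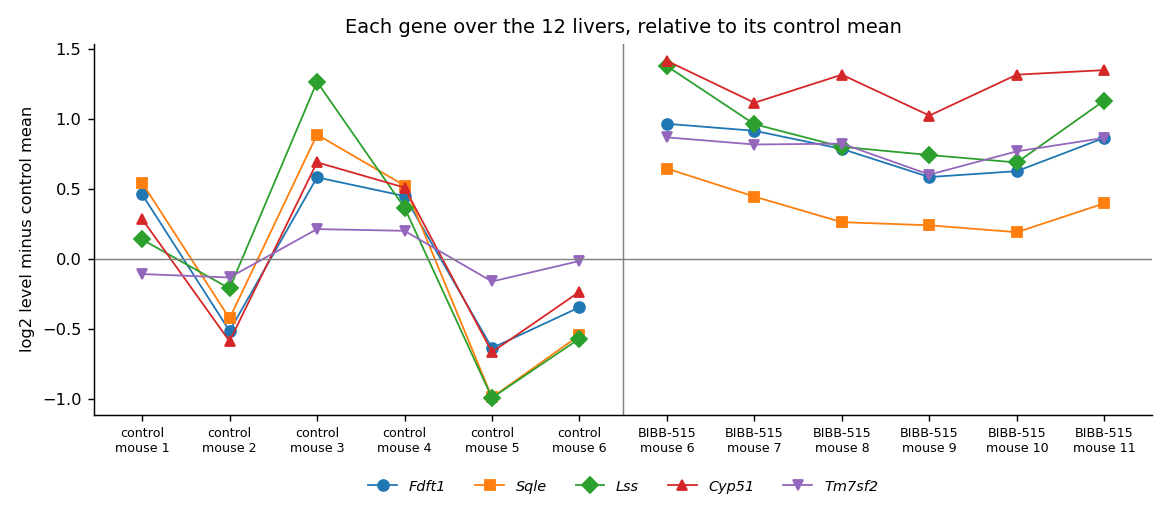
Log2 level of each gene in each mouse minus the gene's mean over the control mice (y axis, log2 units), with control mice 1 to 6 left of the vertical line and BIBB-515 mice 6 to 11 right of it. In the control mice Fdft1, Sqle, Lss and Cyp51 rise and fall together from mouse to mouse and Tm7sf2 much less, while in the BIBB-515 mice the lines are flatter and Sqle runs lowest.

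Spread was tested by permutation, over all labelings, of the distances of log2 CPM from the group median, adjusted over the 5 genes. The medians were those of the observed groups and were not taken anew for each labeling, so these p-values are approximate. For spread, exact means only that all labelings were run. The control SD of log2 CPM was 3.57 times that of the BIBB-515 mice for Fdft1 (0.56 and 0.16, adjusted p = 0.00541, exact permutation test) and 4.45 times for Sqle (0.75 and 0.17, adjusted p = 0.00541, exact permutation test). For Cyp51 it was 3.81 times (0.58 and 0.15, adjusted p = 0.0108, exact permutation test). For Lss it was 2.98 times (0.79 and 0.26), with an adjusted p of 0.0866, and for Tm7sf2 1.69 times (0.17 and 0.10), with an adjusted p of 0.197 in the exact permutation test. The median over all tested genes was 1.48 times (0.20 and 0.13), and a ratio as large as that of Sqle was seen in 2.04% of tested genes, of Cyp51 in 3.41%, of Fdft1 in 4.31%, of Lss in 8.66% and of Tm7sf2 in 39.5%. Thus the control mice were more variable for most genes, and Fdft1, Sqle and Cyp51 stood in the upper few percent. With any control mouse left out, 0 of 5 genes passed, and with any BIBB-515 mouse left out, 3 of 5 passed. In a group of 5 mice, 1 lies on the median at a distance of 0, and the part of this in the loss was not tested. With distances from the group mean, an alternative added after seeing the data, 3 to 4 of 5 genes passed whichever mouse was left out.

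The direction of the mean difference between the diets was the same along each gene, in exons counted in the same libraries. For Sqle (FDR 0.621) and Lss (FDR 0.0854) the difference itself did not pass in edgeR's quasi-likelihood test, and agreement between their exons does not change that. The mean exon level was higher with BIBB-515 in all 8 exons of Fdft1 (log2 ratio of group means 0.62 to 0.80), all 11 of Sqle (0.10 to 0.40), the 21 of 22 Lss exons with at least 10 counts a mouse on average (0.64 to 1.04), all 10 of Cyp51 (1.10 to 1.27) and all 10 of Tm7sf2 (0.72 to 0.93). The annotation of the count tables holds 1 transcript for each gene. First exons differed more than last exons: the log2 ratio of the first counted exon exceeded that of the last by 0.11 in Fdft1, 0.26 in Sqle, 0.28 in Lss, 0.04 in Cyp51 and 0.18 in Tm7sf2. Control mouse 4 had the largest share of counts on the last exon in Sqle (28.8%), Lss (38.5%), Cyp51 (57.4%) and Tm7sf2 (18.2%), against control medians of 21.7%, 28.9%, 50.6% and 15.1%. Without that mouse, an alternative added after seeing the data, the excess of the first over the last exon was 0.01, 0.03, 0.09, −0.12 and 0.04 in the same order of genes. No difference between the diets in the share on the last exon was resolved, with p from 0.400 for Lss to 0.946 for Cyp51 in exact permutation tests.

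**Figure D4:**
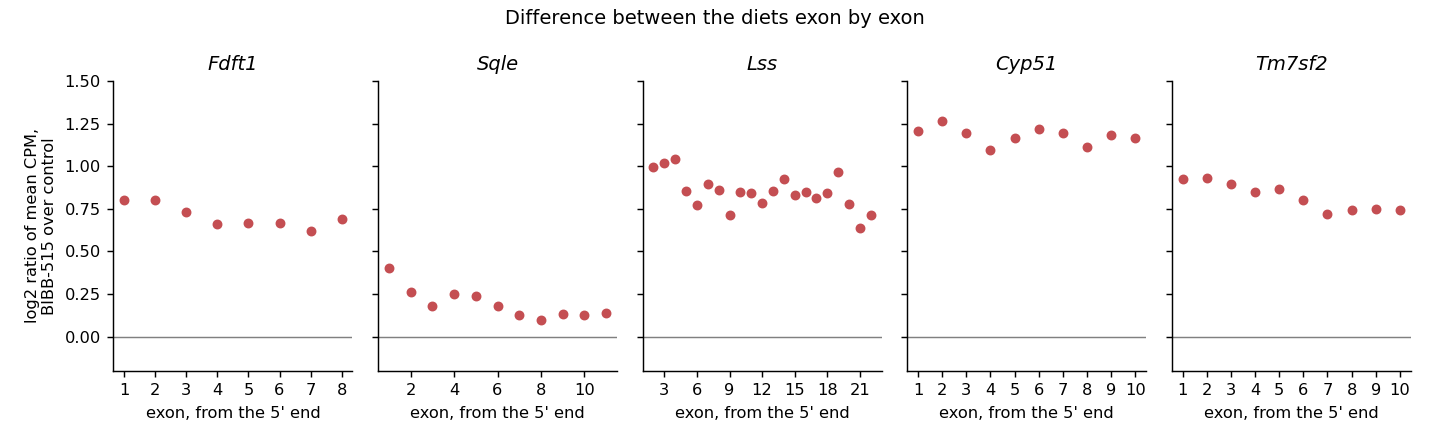
Log2 ratio of the mean CPM of the BIBB-515 mice over that of the control mice (y axis) for each exon counted from the 5′ end (x axis), one panel per gene. Every point is above 0, from 0.10 in Sqle exon 8 to 1.27 in Cyp51 exon 2.

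Exons of 3 of the genes overlap those of a neighbour, and reads on both were not counted in these tables. Fdft1 shares 774 exon bases with Ctsb, the lysosomal protease cathepsin B, on the opposite strand, and Ctsb itself had a log2 fold change of −0.05 with an FDR of 0.795 in edgeR's quasi-likelihood test. Lss shares 188 bases with the uncharacterised gene 4930483K19Rik on the opposite strand, whose log2 fold change was 0.41 with an FDR of 0.381 in the same test. The counts do not use strand, so reads of these opposite pairs cannot be told apart where they overlap. The authors' tables that count such reads for both genes held 1.84% to 7.83% more reads for Fdft1 and 6.99% to 10.5% more for Lss per mouse. Tm7sf2 shares 9 bases with Vps51 on the same strand. With those tables all 5 genes kept their direction and their side of the FDR threshold of 0.05.

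The steps before the branch point rose in part. Of the 8 genes of the mevalonate segment, from acetyl-CoA to farnesyl diphosphate, 3 rose, 0 fell and 5 did not pass an FDR of 0.05 in edgeR's quasi-likelihood test. Their median log2 fold change was 0.55, beside −0.01 over all tested genes, of which 7.18% rose and 6.48% fell at this threshold. Idi1 (1.16, FDR 0.00547), which isomerises isopentenyl diphosphate, Mvk (1.12, FDR 0.00233), mevalonate kinase, and Pmvk (0.56, FDR 0.0473), the next kinase, passed in edgeR's test. Hmgcs1 (0.62, FDR 0.119), the HMG-CoA synthase, and Fdps (0.43, FDR 0.254), which makes farnesyl diphosphate, did not pass in that test. Without control mouse 3, 5 of the 8 passed, and without any one of the other 11 mice, or with 1 surrogate variable, 2 passed and Pmvk was lost. Of 9 genes on the routes from farnesyl diphosphate to other products, 0 passed in either direction (0 of 9 also at an unadjusted p under 0.05, by DESeq2 and by limma-voom), with a median of −0.00. Among them were Ggps1 (−0.16, 95% interval −0.42 to 0.10), which extends it to geranylgeranyl diphosphate, Nus1 (−0.10, 95% interval −0.23 to 0.02) of dolichol synthesis, Cox10 (0.17, 95% interval −0.05 to 0.38) of heme a synthesis and Fntb (0.13, 95% interval −0.12 to 0.38), a farnesyltransferase subunit. Fdft1, the enzyme at the same branch that leads to sterols, had 0.71 in that fit.

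Most genes of the late sterol segment, which lists Lbr at the step of Tm7sf2 and otherwise the steps after it, did not pass the threshold. Of its 9 genes, Lbr included, 1 rose, 0 fell and 8 did not pass in edgeR's quasi-likelihood test, with a median log2 fold change of 0.31. Dhcr7 (0.58, FDR 0.0503), the last reductase of the pathway, 0610007P14Rik (0.31, FDR 0.0644), Nsdhl (0.60, FDR 0.0658), which removes a carbon at C4, Msmo1 (0.71, FDR 0.0671), the C4 methyl oxidase, and Ebp (0.21, FDR 0.0674), the sterol isomerase, lay just beyond the threshold of 0.05 in edgeR's test. So the count turned on the method: DESeq2 called 5 and limma-voom 4 of the 9, and edgeR called 6 without control mouse 3, 5 without control mouse 4 and 2 without control mouse 1. Of all 12481 tested genes, DESeq2 called 2244, limma-voom 1668 and edgeR 1705. Sc5d (−0.03, 95% interval −0.26 to 0.20) and Hsd17b7 (0.10, 95% interval −0.21 to 0.42) were near 0.

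Sqle and Cyp51 both take electrons from cytochrome P450 reductase. Of 5 tested electron donors and binding partners 2 rose and 0 fell in edgeR's quasi-likelihood test (median log2 fold change 0.20), beside 7.18% and 6.48% of all tested genes. Por, that reductase, rose by 0.79 (95% interval 0.48 to 1.10, FDR 0.00265, edgeR), and Pgrmc1, a heme protein that binds P450 enzymes, by 0.73 (95% interval 0.56 to 0.91, FDR 5.09e-05, edgeR). Cyb5b (0.20, FDR 0.128) and Cyb5r3 (0.12, FDR 0.611) did not pass in edgeR's test, and Cyb5a is not analysed here. Both Por and Pgrmc1 also serve many other P450 enzymes of the liver.

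Of 8 genes that control SREBP or the stability of the Sqle protein, 1 rose and 1 fell in edgeR's quasi-likelihood test, with a median log2 fold change of 0.04. Among all tested genes 7.18% rose and 6.48% fell, and 1 of 8 in each direction does not set this list apart. Insig2, which holds SREBP in the endoplasmic reticulum, rose (0.91, FDR 0.00412, edgeR), whereas Insig1, its relative and itself an SREBP target, was at 0.07 (95% interval −0.37 to 0.51, FDR 0.857, edgeR). Srebf2, which encodes SREBP2, was at 0.18 (FDR 0.275, edgeR) and March6, the ubiquitin ligase that marks Sqle protein for degradation, at 0.12 (FDR 0.458, edgeR). Ube2j2, a ubiquitin-conjugating enzyme of the endoplasmic reticulum, fell by 0.96 (FDR 0.00664, edgeR) from a level of 1.08 ± 0.193 CPM (SD, n = 6) in control mice. It was counted only 12 to 36 times per mouse, and its highest level in a BIBB-515 mouse was 0.793 CPM. Ube2j2 thus passed the filter of 1 CPM only through the control mice, where it was higher, and the 1 fall in this list rests on it alone. Of 8 targets of LXR, the receptor that senses oxysterols, 2 rose and 0 fell (median 0.13), beside the same shares of all tested genes. The 2 were Abcg5 (0.88, FDR 0.000102, edgeR) and Abcg8 (0.86, FDR 0.000235, edgeR), which pair to form the transporter that exports sterols into bile. Abcg1 (0.46, FDR 0.0510) and Abca1 (−0.21, FDR 0.0821), other cholesterol exporters, did not pass in edgeR's test.

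**Figure D5:**
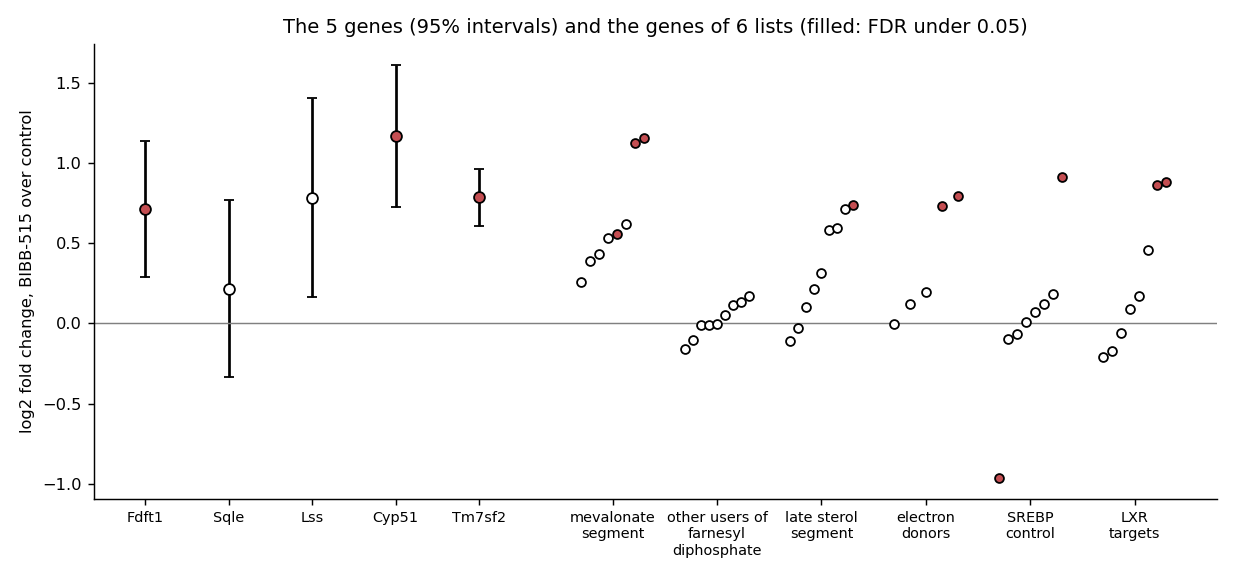
Log2 fold change of BIBB-515 over control from edgeR's fit (y axis) for the 5 genes in pathway order, with 95% intervals, and for each tested gene of 6 lists as a point, filled where the FDR was under 0.05. All 8 mevalonate genes are above 0. The 9 genes labelled other users of farnesyl diphosphate, which are on the routes from it to other products, lie between −0.16 and 0.17.

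For each of the 5 genes, the genes with the most similar level over the 12 mice were found among 11168 others whose log2 CPM averaged 1 or more, by the root mean square difference of log2 CPM after centring each gene on its own mean. For Fdft1 these were Msmo1 (0.16), Nsdhl (0.16) and Hmgcs1 (0.16), all enzymes of the same pathway, where the median over all genes was 0.57. For Cyp51 they were Idi1 (0.19), Mvk (0.23) and Fdft1 (0.26), against a median of 0.76. For Lss they were Prss8 (0.22), a serine protease, Acat2 (0.24), which makes acetoacetyl-CoA, and Dhcr7 (0.27), against a median of 0.74. For Sqle they were Insig1 (0.19), 4930483K19Rik (0.20), the gene that overlaps Lss, and Fmn1 (0.23), against a median of 0.56. For Tm7sf2 none of the 3 was a gene of the pathway: Gsr (0.11), glutathione reductase, Ccl9 (0.12), a chemokine, and Aox1 (0.12), an aldehyde oxidase, against a median of 0.45. Among the members, Fdft1 ranked 4 for Sqle, 6 for Lss and 3 for Cyp51. In the list of Tm7sf2 the other members ranked from 424 (Fdft1) to 6538 (Sqle), while Tm7sf2 ranked 17 in the list of Fdft1 and 16 in that of Cyp51, each rank being taken within that gene's own list. These are descriptions over 12 mice of 2 diets, which share their libraries.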

How the data were processed

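The authors deposited, per mouse, raw counts of reads per gene, transcript and exon, made with featureCounts 1.6.3 from an mm10 annotation without a strand option. The submitters' processing notes also name STAR 2.5.3a. In the gene tables used, multi-mapping reads and reads on more than one gene are left out. A gene was kept when 2 of the 12 mice had 1 CPM or more (12481 of 24062). Library sizes were TMM-scaled, the test was edgeR's quasi-likelihood test (edgeR 4.0.16, R 4.3.3), and p-values were adjusted over all tested genes (FDR). CPM uses TMM-scaled library sizes. Ratios within a mouse used a pseudocount of 0.5 counts. Exact permutation tests ran over all labelings (smallest p 0.00216). Scripts were tested on simulated data. Alternatives were DESeq2 1.42.0, limma-voom (limma 3.58.1), other normalizations and filters, the tables of primary alignments, 1 surrogate variable (sva 3.50.0), a pseudocount of 2 and each mouse left out. The members and lists were chosen with earlier results of these data known. Besides the members, the text names up to 4 genes per pathway list by lowest p, genes that overlap a member, the 3 nearest in level, Lbr, Fdps and Ggps1, and, chosen after their values were seen, the remaining late sterol genes, Insig1 and March6, and the markers named. A few genes of the lists are counted but not reported here by name. Promoter letters are RefSeq's. The depth was 22764819 to 31058370 counted reads per mouse.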

Additional observations from a re-analysis of the deposited data

How the results depend on the processing

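Cyp51 and Tm7sf2 kept their direction and their side of the threshold in all 20 alternatives. Fdft1 was lost with 1 surrogate variable (0.64, FDR 0.0622, edgeR), and over the fits without 1 mouse its log2 fold change ranged from 0.61 to 0.84. Lss passed with limma-voom (0.95, FDR 0.0432) and ranged from 0.64 to 1.15 without 1 mouse. Sqle did not pass in any alternative (0.07 to 0.43). The count of members past the threshold was 2 to 4. The mevalonate count was 2 to 5 and the late sterol count 1 to 6 without 1 mouse, and the latter was 5 with DESeq2, 4 with limma-voom and 2 with no filter on low counts. DESeq2 called 4 of 8 LXR targets where edgeR called 2, beside 2244 and 1705 of all 12481 tested genes. The count of pairs past the threshold was 4 to 5, and the differences for Fdft1 to Tm7sf2 (−0.10 to 0.11) and Lss to Tm7sf2 (−0.0067 to 0.37) changed sign when 1 mouse was left out. The count of genes with unequal spread was 0 to 3 without 1 mouse, and 3 to 4 with distances from the mean. The causes of these changes were not tested. No paired analysis was possible because the groups share only 1 replicate number. Which of depth and spread between mice limited these comparisons was not tested.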
